A study of Caenorhabditis elegans with 2 samples.

Results

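The subject is the tubulin gene family of Caenorhabditis elegans and where the transcription factor subunit NFYA-1 was found around it. The 9 genes were chosen by name: the alpha-tubulin genes tba-1, tba-2, tba-4 and mec-12, the beta-tubulin genes tbb-1, tbb-2, tbb-4 and mec-7, and the gamma-tubulin gene tbg-1. All 9 were found by symbol among the 19973 protein-coding genes of the nuclear chromosomes. Of these, tba-1, tba-2, tba-4, tbb-1, tbb-2 and tbg-1 are taken as the 6 broadly expressed members, and tbb-4, mec-7 and mec-12 as the 3 neuronal ones. The measurement was chromatin immunoprecipitation with sequencing (ChIP-seq), in which DNA bound by a protein is pulled down with an antibody and sequenced. There was 1 group of 2 biological replicates, so no conditions were compared. The animals were whole hermaphrodite late embryos of strain OP404, of genotype unc-119(tm4063) III; wgIs404, whose age in hours is unknown per the labels. The transgene wgIs404 makes NFYA-1 with a GFP-FLAG tag at its C terminus, and the antibody was against GFP per the labels' descriptions, while the antibody field names nfya-1. The tagged protein therefore came from a transgene in 1 strain, and tissues were mixed, so signal in a few neurons cannot be told apart from none.

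Microtubules are hollow filaments built from dimers of alpha- and beta-tubulin, and gamma-tubulin sits in the complexes that start new filaments at the centrosome. Broadly expressed isotypes form the mitotic spindle and the general cytoskeleton, whereas neuronal isotypes build specialised arrays. The products of mec-7 and mec-12 form the wide microtubules of the touch receptor neurons, and tbb-4 is used in ciliated sensory neurons. NFYA-1 is the A subunit of NF-Y, a complex of 3 kinds of subunit that binds the CCAAT box. Many worm transcripts are trans-spliced, meaning that a short leader replaces their first bases, so an annotated start can mark the splice site rather than the place where transcription begins.

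The sequences that carry the findings are those around the summits, the single bases where the signal was highest. They are shown for tbb-1, which had a peak, for tbg-1, whose nearest peak stood at the gene before it, for 3 genes with regions below the threshold, and for mec-7, which had none. Each reads 5′ to 3′ on the strand of the tubulin gene, from the RefSeq copy of WBcel235 (ce11), without bases of any annotated gene. Capitals mark CCAAT on either strand (CCAAT or ATTGG).
tbb-1 promoter peak, chrIII:10742590-10742790, minus strand: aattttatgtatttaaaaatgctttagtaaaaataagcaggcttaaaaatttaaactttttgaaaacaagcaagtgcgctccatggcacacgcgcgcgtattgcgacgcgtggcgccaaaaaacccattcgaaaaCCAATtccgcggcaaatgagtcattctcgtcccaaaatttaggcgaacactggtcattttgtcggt
tbg-1 upstream peak, chrIII:9629886-9630083, minus strand: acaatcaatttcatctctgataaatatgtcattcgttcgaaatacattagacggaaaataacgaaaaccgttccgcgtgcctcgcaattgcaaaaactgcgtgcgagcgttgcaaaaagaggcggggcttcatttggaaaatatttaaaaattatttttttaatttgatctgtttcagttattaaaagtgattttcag
mec-12 region below the threshold, chrIII:3139235-3139343, minus strand: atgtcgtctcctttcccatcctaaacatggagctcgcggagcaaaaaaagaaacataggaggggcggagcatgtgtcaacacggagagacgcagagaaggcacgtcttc
tbb-4 region below the threshold, chrX:9436962-9437162, minus strand: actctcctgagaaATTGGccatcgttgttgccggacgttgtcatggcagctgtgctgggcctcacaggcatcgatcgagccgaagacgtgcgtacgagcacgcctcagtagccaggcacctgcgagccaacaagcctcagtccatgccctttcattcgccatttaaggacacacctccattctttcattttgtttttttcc
tba-4 region below the threshold, chrII:10918615-10918705, plus strand: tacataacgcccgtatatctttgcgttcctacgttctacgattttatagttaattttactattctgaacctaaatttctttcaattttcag
mec-7 bases before the start, no region, chrX:7776690-7776790, minus strand: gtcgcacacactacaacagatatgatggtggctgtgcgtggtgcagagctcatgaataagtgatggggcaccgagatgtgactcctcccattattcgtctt
The tbb-1 window held 1 box and a run of CGCG repeats, and the windows of tbg-1, mec-12, tba-4 and mec-7 held no box. These windows differ in length, with 201 bp at tbb-1, 198 at tbg-1, 109 at mec-12, 91 at tba-4 and 101 at mec-7. Absence from a shorter window is therefore not a like comparison, and mec-12 had a box further upstream, outside its window. The box of tbb-4 lay near the upstream edge of its window, more than 50 bp from the summit. The tba-4 window ends in TTTCAG directly before the annotated start, the letters of a worm 3′ splice site. Those 6 letters stood there in tba-4, tbb-1, tbb-2 and tbb-4, and in 12.3% of all coding genes.

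The binding data were lists of regions, each with a summit and a signal value, an enrichment value that the authors' peak caller gave each region, on a scale that the available labels do not state. The peak list held the 4098 regions that passed the authors' reproducibility threshold, with signal values from 58.2 to 9543. The pooled list held 15515 regions called on both replicates together, down to a signal of 22.5, and its 4098 strongest are the peak list. Called alone, replicate 1 gave 21476 regions and replicate 2 gave 28596. Signal values are set side by side only within a list. Read depth is unknown, so a missing region says only that nothing was listed there. A gene was taken to have a summit at its promoter when one lay within 500 bp before or 100 bp after the start of any of its protein-coding transcripts.

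NFYA-1 peaks stood at the promoters of tba-1, tba-2 and tbb-1 and at none of the neuronal members. Counted in the peak list, 3 of the 9 members had a summit at the promoter, against 11.2% of all coding genes. By class the counts were 3 of 6 broadly expressed members and 0 of 3 neuronal members. These classes hold too few genes for a test, and the members were chosen with results of these data known, so the counts are a description. As background, tba-1, tba-2, tbb-1 and tbb-2 are the main alpha- and beta-tubulin genes of the early embryo. The embryos here were late, and expression was not measured. Among broadly expressed members tbb-2, tba-4 and tbg-1 had no promoter peak.

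**Figure D1:**
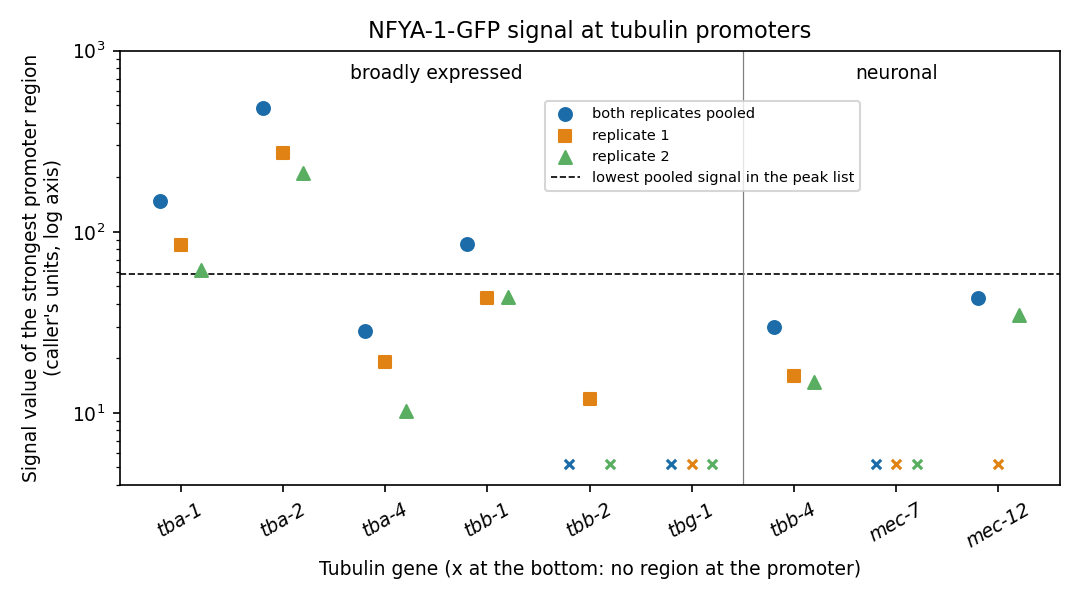
Signal value of the strongest region at each tubulin promoter (vertical log axis, caller's units). Circles are the pooled list, squares replicate 1 and triangles replicate 2, with crosses where no region was listed. The dashed line at 58.2, the lowest signal in the peak list, applies to circles only. The 4098 strongest regions go down to 32.3 in replicate 1 and 28.8 in replicate 2. In the pooled list tba-2, tba-1 and tbb-1 lie above the line, while mec-12, tbb-4 and tba-4 lie below it.

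The highest signal was at tba-2 (WBGene00006529, I:12964674 to 12966795, minus strand), an alpha-tubulin gene with 2 annotated starts. Its summit lay at I:12966934, between genes and 139 bp upstream of the outer start. The pooled signal was 485, ranked 99 of 15515 regions. In the replicates the signal was 272 in replicate 1 (rank 86) and 211 in replicate 2 (rank 138), with summits no more than 2 bp from the pooled one. Thus tba-2 stood in the first 150 regions of each list, and in the pooled list it took place 50 among the 19973 coding genes by strongest promoter signal. No other coding gene shared this summit. The next gene upstream, the proteasome subunit gene pbs-2, is on the same strand and ends 420 bp before the outer tba-2 start. In replicate 2 alone a second and weaker region (signal 19.9, rank 6479) lay 92 bp upstream of the inner start, in the intron between both starts. The only annotated start codon of tba-2 lies beyond that intron, 671 bp downstream of the main summit. Measured from start codons in place of transcript starts, an alternative added after the data were seen, tba-2 would therefore have no summit at its promoter, and 10.5% of coding genes would have one.

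The second alpha-tubulin gene with a peak was tba-1 (WBGene00006528, I:9785781 to 9787624, minus strand). Its summit at I:9788014 was 390 bp upstream of the outer start, with a pooled signal of 148 and rank 1287. The signal was 84.5 in replicate 1 (rank 1182) and 61.8 in replicate 2 (rank 1591), at summits 1 and 2 bp away. This peak stood between tba-1 and cox-5B, a cytochrome c oxidase subunit gene that starts on the other strand 1100 bp away. A much stronger peak lay 659 bp from it in the same space, at I:9788673, 52 bp upstream of cox-5B and 1049 bp upstream of tba-1. That peak had a signal of 1501 and rank 10, which is 10.1 times the signal at tba-1. It lay outside the tba-1 promoter window, so tba-1 was counted by its own weaker peak.

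The beta-tubulin gene tbb-1 (WBGene00006536, III:10740868 to 10742432, minus strand) had the weakest of the 3 promoter peaks. It stood 258 bp before the start, with its summit at III:10742690, and had a pooled signal of 85.5 and rank 2698. The signal was 43.1 in replicate 1 (rank 2928) and 43.4 in replicate 2 (rank 2590), with summits 49 and 21 bp from the pooled one. The peak was shared with rib-2, a gene for a glycosyltransferase of heparan sulfate synthesis that runs the other way from a start 377 bp beyond tbb-1. It was nearer to rib-2, at 120 bp upstream of that start. Given to its nearest coding start alone it would not count for tbb-1, nor would it among the upper 50% of peaks by signal.

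With a shorter promoter of 250 bp upstream to 50 bp downstream, tba-2 was the only member with a peak. The summits of tba-1 and tbb-1 lay beyond it, and 7.28% of all coding genes had a summit in that window. Among all 1812 peaks at coding promoters the median signal was 107, so tba-2 and tba-1 were above the middle of these peaks and tbb-1 was below it. In the 4098 strongest regions of each replicate, the 3 genes had a promoter summit in replicate 1, where 10.5% of coding genes did, and in replicate 2, where 11.4% did. The replicates and the pooled list share reads, so this is a description.

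**Figure D2:**
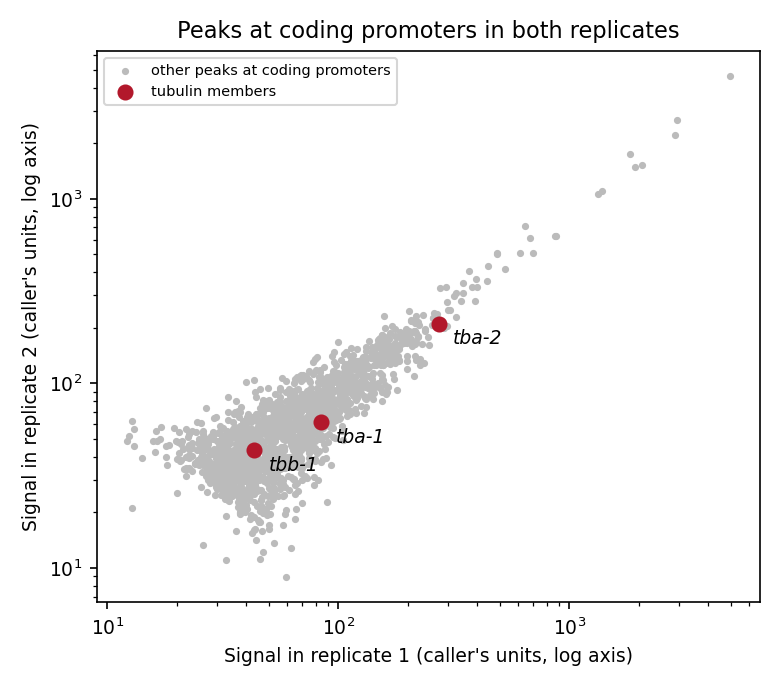
Signal in replicate 2 (vertical) against signal in replicate 1 (horizontal), both log axes in the caller's units, for the 1757 peaks at coding promoters with a summit within 100 bp in each replicate; red points are the tubulin members. The point of tba-2 lies at 272 and 211, above most other peaks in both replicates, while tba-1 and tbb-1 lie among the bulk of the peaks.

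All 3 promoter peaks held a CCAAT box within 50 bp of the summit. At tba-2 there were 2, on opposite strands, with the nearer one 21 bp from the summit. At tba-1 there was 1 at 25 bp, and at tbb-1 there was 1 at 35 bp. Among the 1812 peaks at coding promoters 20.4% held the box in the same 101 bp, and among all 4084 nuclear peaks 32.9% did. In pooled regions below the peak list the share was 21.9%, so the box was not particular to promoter peaks. Within 25 bp of the summit only tba-2 held the whole box, against 11.5% of peaks at coding promoters. Of other 5-base words, searched on both strands because they are common at these peaks, CGCGC stood 4 times at tbb-1 (with overlaps, as the printed sequence shows), 2 times at tba-2 and not at tba-1. It was present in 35.2% of peaks at coding promoters. CTCTC stood 3 times at tba-1, once at tba-2 and not at tbb-1, against 41.3% of those peaks. The GC content of the 101 bp was 58.4% at tba-1, 42.6% at tba-2 and 50.5% at tbb-1, beside a median of 47.5% for those peaks. The 3 peaks thus had the box in common and neither the other words nor the base composition.

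The gamma-tubulin gene tbg-1 (WBGene00006540, III:9626536 to 9629154, minus strand) had no promoter summit in any of the 4 lists. Its nearest peak, at III:9629983, lay 829 bp upstream, beyond rpac-19, a gene for a subunit of RNA polymerases I and III that starts 98 bp from the summit and ends 91 bp before tbg-1. The peak had a pooled signal of 144 (rank 1354), with 45.8 in replicate 1 (rank 2732) and 93 in replicate 2 (rank 846). Each replicate therefore held it among its 4098 strongest regions. The gene ubc-7, for a ubiquitin-conjugating enzyme, lies next upstream on the same strand. The window printed above held no CCAAT box, and with a promoter of 1000 bp upstream to 200 bp downstream this peak would count for tbg-1.

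The beta-tubulin gene tbb-2 (WBGene00006537, III:4015910 to 4017627, minus strand) had no promoter summit in the peak list or the pooled list. Replicate 1 alone listed a weak region 379 bp upstream (signal 11.9, rank 20194 of 21476). Further out, a pooled region 990 bp upstream had a signal of 40.8 (rank 5998), below the peak list, with 29.1 in replicate 1 and 14.1 in replicate 2. The nearest peak was 2.41 kb from the start. Its partner in the early embryo, tbb-1, shares the splice-site letters before the start. The next coding gene upstream was 2409 bp away at tbb-2 and 377 bp away at tbb-1. That distance was 377 to 1100 bp at the members with a promoter peak and 91 to 3185 bp at the others. Any link between this distance and the peaks was not tested.

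The alpha-tubulin gene tba-4 (WBGene00006530, II:10918706 to 10920211, plus strand) had a pooled region 41 bp upstream, with a signal of 28.5 and rank 9951 of 15515. Replicate 1 listed a region there, 25 bp upstream, at 19 (rank 8513). Replicate 2 had its only promoter region elsewhere, 236 bp upstream, at 10.2 (rank 20606 of 28596). The replicates therefore did not place a summit at the same site. The nearest peak was 22.5 kb away. The summit window of tba-4 had a GC content of 28.7%, lower than at any of the 3 promoter peaks. The promoter regions of mec-12 and tbb-4, also below the threshold, had 54.5% and 62.4%, so low GC content was not common to such regions.

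Among the neuronal members, mec-12 had the highest promoter signal, below the threshold. This alpha-tubulin gene (WBGene00003175, III:3131574 to 3139234, minus strand) had a pooled summit at III:3139243, 9 bp upstream of its start, with a signal of 43.3 and rank 5620. Replicate 2 had a region 21 bp upstream with a signal of 34.7 and rank 3307, and replicate 1 listed none at the promoter. The replicates thus disagreed. Replicate 2 placed mec-12 among its 4098 strongest regions, which go down to a signal of 28.8, so mec-12 would be counted from replicate 2 alone. The −log10 of the q-value in the authors' list was 2.98 in replicate 2 and 0.86 in the pooled list. No CCAAT box lay within 50 bp of the summit.

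The ciliary beta-tubulin gene tbb-4 (WBGene00006538, X:9434452 to 9436893, minus strand) had a pooled summit 169 bp upstream, with a signal of 29.9 and rank 9230. Replicate 1 listed it 166 bp upstream at 16 (rank 11503). The promoter region of replicate 2 was 292 bp upstream at 14.9 (rank 10381), more than 100 bp from the pooled summit. The nearest peak lay 29 kb away, the farthest for any member. The touch neuron beta-tubulin gene mec-7 (WBGene00003171, X:7774856 to 7776689, minus strand) had no promoter region in any list. Its nearest peak was 5.9 kb off, and that of mec-12 was 11.4 kb off.

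Counting the pooled list, which also holds background regions, the classes had equal shares. A promoter summit was then present in 6 of the 9 members, in 4 of 6 broadly expressed and 2 of 3 neuronal ones, against 23.7% of all coding genes. The 3 regions added, at mec-12, tbb-4 and tba-4, had signals of 28.5 to 43.3, all under the 58.2 at which the peak list ends. By strongest pooled promoter signal mec-12, tbb-4 and tba-4 took places 2833, 3670 and 3799 among coding genes, after tba-2, tba-1 and tbb-1 at 50, 701 and 1495. Neighbouring places among the lower 3 are not told apart by these values, since replicates gave them no common summit within 100 bp.

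**Figure D3:**
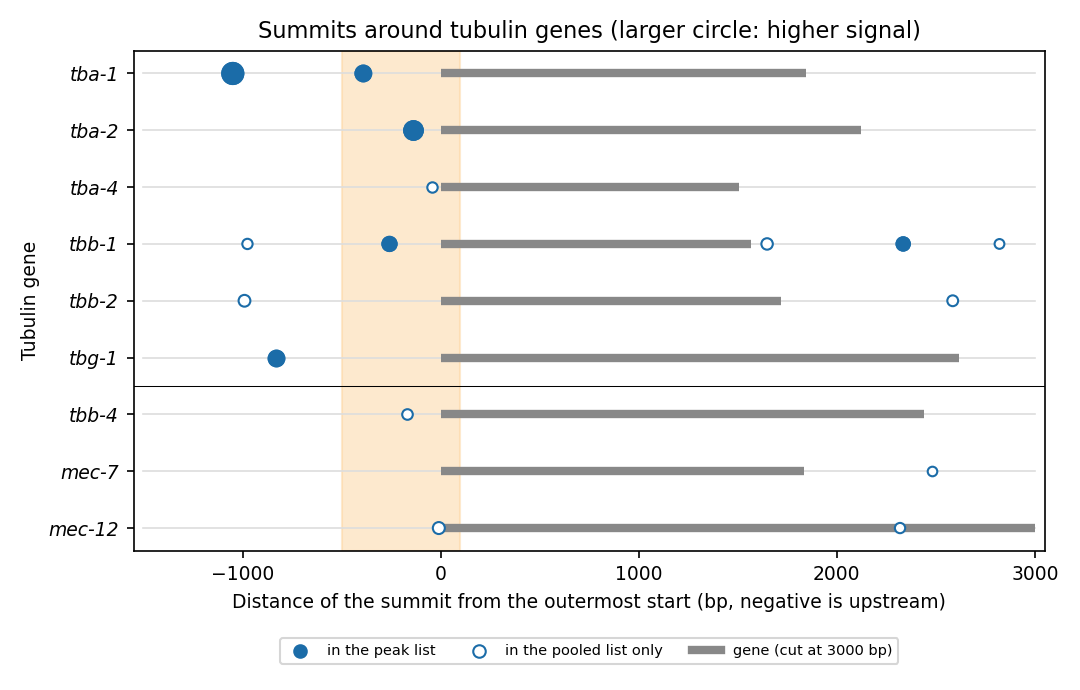
Summits of the peak list (filled) and of the pooled list only (open) around the 9 tubulin genes, by distance in bp from the outermost start (horizontal); grey bars are the genes, the shaded band is the promoter window, and circle area grows with signal. Filled circles stand in the band at tba-1, tba-2 and tbb-1, and none is drawn at a neuronal member.

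No member had a peak in an intron. In the peak list an intron held a summit in 0 of 9 members and in 4.45% of all coding genes. In the pooled list this was 1 of 9, mec-12, against 14% of coding genes. The mec-12 region lay 2319 bp downstream of the start, with a signal of 27.7 (rank 10472), 15.7 in replicate 1 and 12.8 in replicate 2. It held 2 CCAAT boxes within 50 bp, the nearer 16 bp from the summit. The gene spans 7661 bp, while the other 8 span 1506 to 2619 bp; the length of intron sequence was not measured.

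The 250 bases before the outermost start held a CCAAT box in 5 of 6 broadly expressed members and in 1 of 3 neuronal members, against 38.9% of all coding genes. Boxes were present at tba-1, tba-2, tbb-1, tbb-2 and tbg-1, and tba-4 had none. Among the neuronal genes mec-12 had 1, and tbb-4 and mec-7 had none. The box was therefore also present before the starts of tbb-2, tbg-1 and mec-12, which had no promoter peak. Both tbg-1 boxes lay inside rpac-19, the gene that ends 91 bp before tbg-1. Most of the 250 bases counted for tbg-1 also lay in rpac-19, so its boxes and GC content here largely describe another gene. The GC content of these 250 bases had a median of 39% (range 27.6 to 42.8) in broadly expressed members and of 45.6% (35.2 to 48.4) in neuronal members, beside 33.2% for all coding genes.

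The other 7 tubulin genes of the worm are tba-5 to tba-9, tbb-6 and the beta-tubulin gene ben-1, known as the target of benzimidazole drugs. None had a peak at a promoter (0 of 7), beside 11.2% of all coding genes. In the pooled list ben-1 alone (1 of 7) had a promoter region, beside 23.7% of all coding genes. With 7 genes these counts cannot be told apart from those shares. The ben-1 region (signal 34.4, 124 bp upstream) had 2 CCAAT boxes within 50 bp of its summit. The peak nearest to ben-1 was 673 bp upstream, at III:3542312, and would count with the 1000 bp promoter. Its signal was 74.7, with 46.4 in replicate 1 and 29.4 in replicate 2. The 250 bases before ben-1 held 3 CCAAT boxes. The strongest peak in any of the 7 genes was in an intron of tba-7 (WBGene00006533), at III:11371477, 311 bp downstream of the start. Its pooled signal was 152 (rank 1240), with rank 844 in replicate 1 and rank 2197 in replicate 2. This summit also lay inside the non-coding RNA genes T28D6.13 and T28D6.15, so it cannot be given to tba-7 alone, and it held no CCAAT box. For tba-5, tba-6, tba-8, tba-9 and tbb-6 the nearest peaks were 6.79 to 25.8 kb away.

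Genes that fold and organise tubulin were also examined, from lists drawn up with earlier results of these data known. Of 21 genes for tubulin folding (the chaperonin CCT, prefoldin and tubulin cofactors), 11 had a promoter peak (52.4%), beside the 11.2% of all coding genes. The highest signals were at the chaperonin genes cct-8 (466), cct-1 (337) and cct-7 (308), each below tba-2 and each in a peak shared with another coding gene. None of these 3 held a CCAAT box within 50 bp. The count was 5 of 21 when each summit was given to its nearest start, beside 8.81% of all coding genes. It was 6 of 21 with the 250 bp promoter, beside 7.28%. In the list of microtubule nucleation and the centrosome, 5 of 14 genes had a promoter peak (35.7%). The highest were the centriole assembly genes sas-6 (198) and sas-5 (192) and the minus-end protein gene ptrn-1 (162).

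Among microtubule-associated and severing proteins 4 of 20 had a promoter peak (20%), with the spastin homologue spas-1 (176), the microtubule-depolymerising kinesin klp-7 (91.8) and the dynactin gene dnc-1 (83) in the lead. That count was 1 in the upper 50% of peaks by signal, beside 5.68% of all coding genes. It was 9 with the 1000 bp promoter, beside 14.1%. Of 10 enzymes that modify tubulin, 1 had a promoter peak (10%), near the 11.2% of all coding genes. It was the glutamylase gene ttll-4 (68.5). Without replicate 2 that count was 0, since ttll-4 had rank 4173 in replicate 1, and it was also 0 with the 250 bp promoter and in the upper 50% by signal. Of 12 genes listed for touch receptor neurons, 2 had a peak (16.7%), beside the same 11.2%. They were the POU homeodomain gene unc-86 (138) and mec-6 (63.5), a gene needed for the touch channel. Without replicate 2 the count was 1, since mec-6 had rank 5704 in replicate 1, and it was also 1 with the 250 bp promoter, in the upper 50% by signal and from start codons. In the pooled list the counts were 15 of 21 for folding, 7 of 14 for nucleation, 6 of 20 for associated proteins, 3 of 10 for modifying enzymes and 2 of 12 for touch neuron genes, beside 23.7% of all coding genes.

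**Figure D4:**
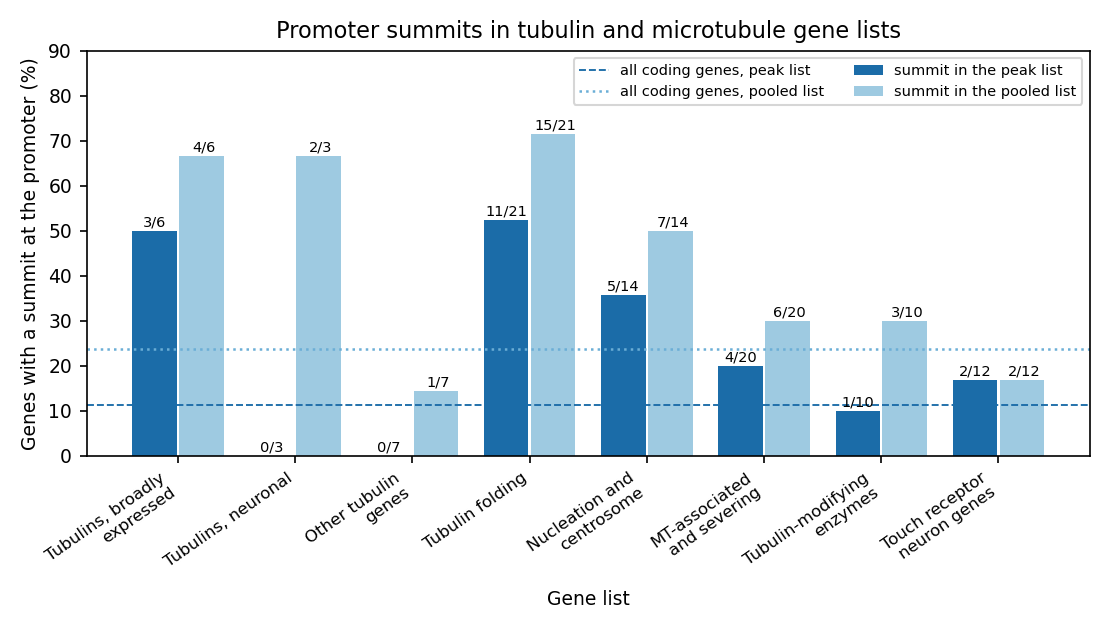
Percent of genes in each list with a summit at the promoter (vertical) in the peak list (dark bars) and the pooled list (light bars), with counts above the bars and lines at 11.2% and 23.7%, the shares of all coding genes. Broadly expressed tubulins (3 of 6) and folding genes (11 of 21) stand above the dashed line. So do the lists of nucleation (35.7%), microtubule-associated (20%) and touch receptor neuron genes (16.7%, which is only 2 of 12). Tubulin-modifying enzymes (1 of 10) stand just below that line. In the pooled list touch receptor neuron genes (2 of 12) and other tubulins (1 of 7) lie below the 23.7% line. Neuronal and other tubulins (0 of 3 and 0 of 7) have no dark bar.

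The genes whose promoter peaks were most like that of tba-2 were found by the distance between log2 ranks in the pooled list and both replicates, over 2167 genes. Nearest were the ribosomal protein genes rpl-24.1 and rps-10, which share 1 peak (signal 479, with 271 in replicate 1 and 208 in replicate 2). Next, at equal distance, were tub-2, which is not among the tubulin genes, and Y71G12A.5, which share a peak (475, with 279 in replicate 1 and 199 in replicate 2). This likeness covers 3 lists that share reads, and is a description of rank only.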

How the data were processed

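Regions from NFYA-1-GFP ChIP-seq of 2 biological replicates were used as the authors deposited them, in narrowPeak format and build ce11, per the listings deposited with the files. Per those listings, the replicate and pooled lists were derived from 1 or both alignment files and 1 more file of unstated kind, and the peak list from the other 3 lists. The deposited peak list is the one that passed the authors' reproducibility threshold (IDR). Signal is the enrichment value the authors deposited for each region, and the q-value is deposited as its −log10. The sources used here name no aligner, caller or threshold. Control data were not used here, so any signal that open promoters give without the factor was not separated.

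Summits (1-based) were set against Ensembl release 115 starts (29314 starts of 19973 coding genes) and RefSeq WBcel235 sequence with Python 3.11.15, numpy 2.4.6 and pandas 2.3.3, and plotted with matplotlib 3.10.9. No region ran past a chromosome end (0 in the 4 lists), and the 14 mitochondrial peaks met no nuclear gene. An intron summit lay in an intron of a coding transcript and in no exon of that gene. Regions in different lists were matched when their summits lay within 100 bp. CCAAT and other words were searched on both strands. No test was run. The assignment was tested on simulated data. Of 94 listed genes, 93 matched by symbol.

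Members and lists were chosen with earlier results of these data known. Text names all members, genes sharing their summits, other tubulins, and the 3 strongest genes of each list (all if fewer), with the 3 genes nearest to tba-2 in rank (4 with a tie). The other neighbours named were chosen after their values were seen. Alternatives were the promoter window, the starts used, nearest-start assignment, the list, the motif window, the match distance and each replicate alone.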

Additional observations from a re-analysis of the deposited data

How the results depend on the processing

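The count of 3 members with a promoter peak became 1 when promoters were cut to 250 bp before and 50 bp after the start (1 broadly expressed) and 6 in the pooled list. With replicate 1 or replicate 2 left out it was 4 or 3. The neuronal count of 0 was 2 in the pooled list, and 1 without replicate 1 and 0 without replicate 2; it stayed at 0 under the other 6 alternatives. The broadly expressed count was 3 without either replicate. The share of all coding genes was 7.28% with the shorter promoter, 5.68% in the upper 50% of peaks by signal and 23.7% in the pooled list, and 10.5% to 11.4% when a replicate was left out. The intron count of 0 was 1 in the pooled list, and 0 without either replicate. The related lists hold 7 other tubulin genes, 21 for folding, 14 for nucleation, 20 for associated proteins, 10 for modifying enzymes and 12 for touch neurons. Over these lists 23 genes had a peak, where 11.2% of all coding genes did. It was 14 genes with the shorter promoter and also 14 in the upper 50% by signal. When a replicate was left out it was 20 to 23. Of the 3 promoter peaks, 1 held CCAAT within 25 bp and 3 within 100 bp, and all 3 were matched in each replicate at 50, 100 and 200 bp. Counts of this kind moved by no more than 1.5 times in 43 of 55 comparisons. These comparisons overlap, and a count of 0 that stayed at 0 was scored as unmoved. Those that left out tba-4 or tbg-1, which had no promoter peak, could not change the count. The total is therefore no measure of stability. The cause was not tested where a count moved, beyond the smaller window or shorter list itself. No paired analysis was possible because there was 1 group. Unknown read depth limits what an absent region can show, and no error is given for signal values beyond the 2 replicates.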
